A study of Homo sapiens with 12 samples.

Results

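The genes described here are the G1 cyclins and the inhibitors of cyclin-dependent kinases (CDKs) that act with them, 10 of the 57820 gene rows in the count table. They were chosen by name, as the D cyclins (CCND1, CCND2, CCND3), the E cyclins (CCNE1, CCNE2), the KIP inhibitor CDKN1B and the INK4 inhibitors (CDKN2A, CDKN2B, CDKN2C, CDKN2D). The rule names no measured value, but earlier results of these data were known when the genes were chosen. All 10 had a row in the table, and 8 passed the filter on low counts. CDKN2A and CDKN2B did not pass and are given as read counts only. RNA came from the lung cancer line A549, the ovarian cancer line SKOV3 and the breast cancer line MDA-MB-231, which the series describes as free of MYC amplification. Each line had been transduced with lentivirus made from pCDH-puro-cMyc, which encodes full-length human c-Myc (MYC cells), or from the pCDH-CMV control plasmid (control cells, called WT in the labels). Puromycin was used to select stable cells, so each is a selected population carrying a vector. MYC and control cells then received tipifarnib, an inhibitor of the enzyme farnesyltransferase, or DMSO, and were harvested after 48 h. The tipifarnib dose was 10 µM in A549 and 20 µM in SKOV3 and MDA-MB-231, so line and dose cannot be told apart where A549 is set against the other lines. Each of the 4 groups (MYC with tipifarnib, MYC with DMSO, control with tipifarnib, control with DMSO) held 3 libraries, 1 per line.

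A cell decides in G1 whether to copy its DNA. D cyclins bind and activate CDK4 and CDK6, E cyclins bind and activate CDK2, and the active kinases phosphorylate RB1 and its relatives, which releases E2F transcription factors and lets S phase genes be transcribed. INK4 proteins bind CDK4 and CDK6 and keep D cyclins from activating them, while KIP proteins such as p27, the product of CDKN1B, bind cyclin-CDK2 complexes. D cyclins are known as sensors of mitogen and Ras signals, CCNE2 as a target of E2F factors, and CCND2 as a target of MYC.

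The libraries held between 20481363 and 26962994 reads in genes, and 17096 genes entered the tests. Levels are given as CPM, read counts scaled to library size with TMM factors. Changes are on the log2 scale with the standard error of the edgeR model, as tipifarnib over DMSO or MYC over control. A gene is said to rise or fall where edgeR's quasi-likelihood test gave an adjusted p under 0.05 over all genes tested. The replicates of a group are different cell lines with no repeat culture of a line, so a p-value reflects no more than the spread between these libraries. The introduced gene MYC had 506 and 912 CPM in A549 MYC cells with tipifarnib and DMSO, against 144 and 105 CPM in the control cells. In SKOV3 it had 610.1 and 494 CPM in MYC cells, against 99.7 and 48.4 CPM in control cells, and in MDA-MB-231 1593 and 709 CPM against 349 and 148 CPM. MYC was higher in MYC cells in 6 of 6 pairs, by 2.61 ± 0.24 (adjusted p = 0.00745), and reads of the vector and of the endogenous gene cannot be separated. The line markers followed the labels with exceptions. The summed level of 4 A549 markers (AKR1B10, AKR1C1, ALDH1A1, CPS1) was 9622 to 11739 CPM in A549, 289 to 571 CPM in SKOV3 and 13.0 to 38.7 CPM in MDA-MB-231. That of 3 SKOV3 markers (ERBB2, PAX8, MECOM) was 1527 to 6375 CPM in SKOV3, 116 to 134 CPM in A549 and 103 to 148 CPM in MDA-MB-231. The 4 mesenchymal markers listed for MDA-MB-231 (VIM, ZEB1, CAV1, MSN) did not set it apart, at 1955 to 2896 CPM in MDA-MB-231 and 2078 to 3110 CPM in SKOV3, and AKR1C1 averaged 409 ± 133 CPM in SKOV3 and 234 ± 68.3 CPM in A549 (SD over 4 libraries).

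CCND1, the D cyclin best known from carcinoma cells, had the highest mean of the 10 genes per exon length in each line, and the highest value in 11 of the 12 libraries. The exception was SKOV3 MYC cells with DMSO, where CCND1 was at 11.8, below CDKN2C at 19.7 and CDKN1B at 13.1. Levels between genes are compared here as CPM per kilobase of exon. CCND1 averaged 91.1 ± 32.7 in MDA-MB-231, 82.0 ± 2.36 in A549 and 33.5 ± 15.3 in SKOV3 (SD over the 4 libraries of a line). Its share of the D cyclin sum was 76.5% to 87.0% in A549, 59.3% to 85.2% in SKOV3 and 71.9% to 85.8% in MDA-MB-231. CCND3 held most of the rest, at 12.9% to 23.4% in A549, 14.8% to 40.7% in SKOV3 and 11.5% to 13.7% in MDA-MB-231. CCND2 added at most 0.267% in A549 and nothing detectable in SKOV3, but 2.64% to 15.9% in MDA-MB-231. Of the E cyclins, CCNE1 was the more abundant in all 12 libraries, with 90.7% to 97.0% of the sum in A549, 74.3% to 90.8% in SKOV3 and 53.6% to 86.8% in MDA-MB-231.

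The inhibitors divided the lines in another way. CDKN1B had the next mean after CCND1 in A549, at 26.0 ± 2.92 CPM per kilobase, and averaged 15.2 ± 1.03 in MDA-MB-231 and 11.01 ± 3.10 in SKOV3. Among the INK4 genes, CDKN2C (p18) held 66.7% to 84.0% of the summed level in A549 and 44.5% to 76.8% in SKOV3. In MDA-MB-231, CDKN2D (p19) held 47.2% to 77.4% and CDKN2C 22.5% to 52.7%. CDKN2A held at most 0.815% and CDKN2B at most 0.106% of the INK4 sum in any library. Many neighbours in the order of mean levels had overlapping values. In A549 this held for CDKN1B and CCND3, CCND3 and CCNE1, and CCNE1 and CDKN2C, and in SKOV3 for each pair of neighbours from CCND1 through CDKN2C, CDKN1B, CCND3 and CCNE1 to CDKN2D. In MDA-MB-231 it held for each pair from CDKN1B through CCND3, CDKN2C, CCND2 and CCNE1 to CCNE2, while CDKN2D lay above CDKN1B in all libraries.

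**Figure D1:**
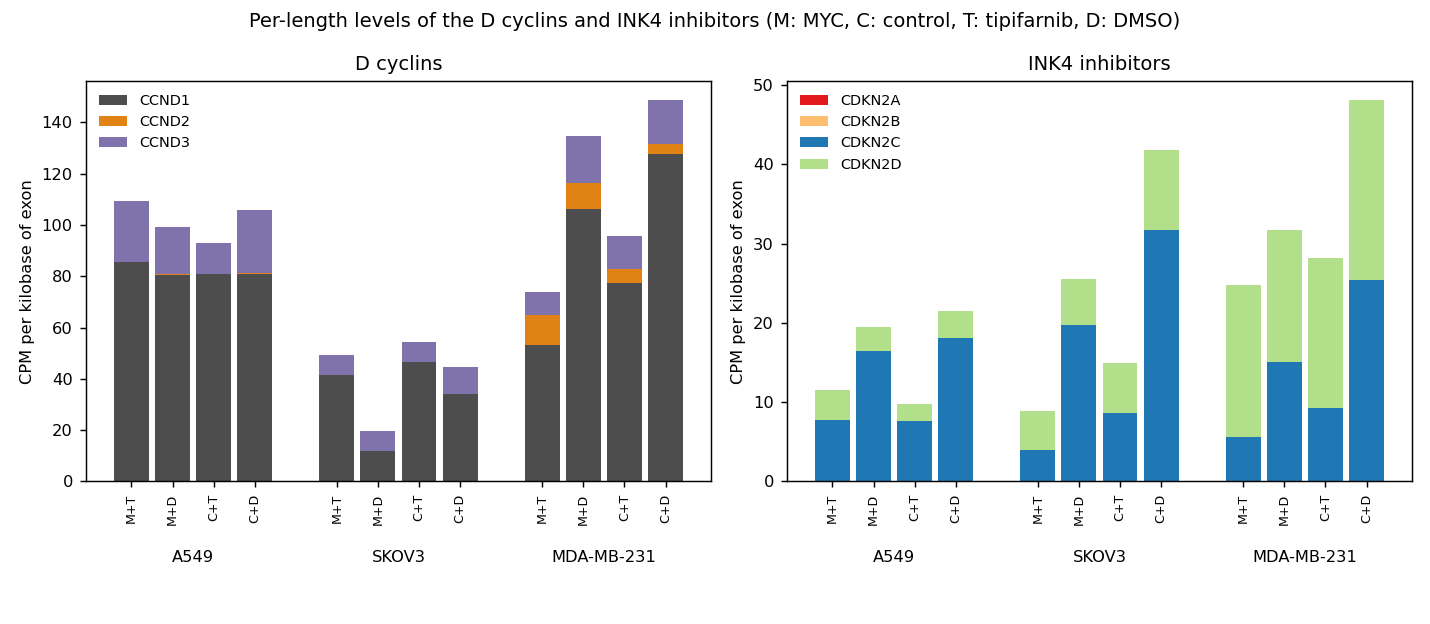
Summed level of the D cyclins (left) and the INK4 inhibitors (right) in CPM per kilobase of exon, 1 stacked bar per library, with M for MYC, C for control, T for tipifarnib and D for DMSO. CCND1 fills most of each D cyclin bar, CCND2 is visible in MDA-MB-231, and the CDKN2C part of each tipifarnib bar is shorter than in its DMSO partner.

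The lines differed in most of these genes. In A549 against SKOV3, 6 of the 8 tested genes passed the edgeR test, where 58.1% of all genes did (29.6% higher and 28.5% lower in A549). In A549 against MDA-MB-231 the count was 5 of 8, where 57.3% of all genes passed (30.4% higher and 26.9% lower in A549). In SKOV3 against MDA-MB-231 it was 6 of 8, where 61.6% of all genes passed (32.3% higher and 29.3% lower in SKOV3). With so large a background, these counts say nothing particular about the cell cycle genes. CCNE1, the activator of CDK2, had the order A549, SKOV3, MDA-MB-231, at 35.2 ± 9.38, 20.1 ± 4.21 and 12.7 ± 2.26 CPM (SD over 4 libraries of a line). Its difference was 0.80 ± 0.19 for A549 against SKOV3 (adjusted p = 0.00448), 1.44 ± 0.19 for A549 against MDA-MB-231 (adjusted p = 0.00014) and 0.64 ± 0.19 for SKOV3 against MDA-MB-231 (adjusted p = 0.0145). CDKN2D had the opposite order, at 4.64 ± 1.13 CPM in A549, 10.2 ± 3.41 CPM in SKOV3 and 29.05 ± 3.78 CPM in MDA-MB-231, and its log2 difference was -2.65 ± 0.23 for A549 against MDA-MB-231 (adjusted p = 7.35e-06), -1.11 ± 0.22 for A549 against SKOV3 (adjusted p = 0.00162) and -1.54 ± 0.21 for SKOV3 against MDA-MB-231 (adjusted p = 0.000156). CDKN1B was highest in A549, at 73.1 ± 8.22 CPM, against 30.95 ± 8.73 CPM in SKOV3 (1.27 ± 0.18, adjusted p = 0.000177) and 42.8 ± 2.89 CPM in MDA-MB-231 (0.77 ± 0.17, adjusted p = 0.00337). CDKN2C averaged 41.3 ± 18.4 CPM in A549, 53.0 ± 40.9 CPM in SKOV3 and 45.8 ± 28.6 CPM in MDA-MB-231, and its 3 line differences lay between -0.08 and 0.07, each with a standard error of 0.22 or 0.23. The CDKN1B difference between SKOV3 and MDA-MB-231 (-0.49 ± 0.17, adjusted p = 0.0308) did not pass in 5 of the 8 fits that left out 1 library of either line.

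The D cyclins CCND1 and CCND3 were lowest in SKOV3. CCND1 differed by 1.35 ± 0.37 for A549 against SKOV3 (adjusted p = 0.0107) and by -1.49 ± 0.38 for SKOV3 against MDA-MB-231 (adjusted p = 0.00652), with -0.14 ± 0.37 for A549 against MDA-MB-231 (adjusted p = 0.758). CCND3 differed by 1.19 ± 0.22 for A549 against SKOV3 (adjusted p = 0.00104) and by -0.74 ± 0.22 for SKOV3 against MDA-MB-231 (adjusted p = 0.0133), with 0.45 ± 0.22 for A549 against MDA-MB-231 (adjusted p = 0.0995). The call of CCND3 for SKOV3 against MDA-MB-231 did not pass without the MDA-MB-231 control library with tipifarnib (adjusted p = 0.0504), and that for A549 against MDA-MB-231 passed without the A549 control library with tipifarnib (0.0311). CCNE2 differed by -1.30 ± 0.39 for A549 against MDA-MB-231 (adjusted p = 0.0152), which did not pass without either A549 DMSO library (0.0522 and 0.0502) or the MDA-MB-231 control library with DMSO (0.066). The other CCNE2 differences were -0.88 ± 0.38 for A549 against SKOV3 (adjusted p = 0.0671) and -0.42 ± 0.37 for SKOV3 against MDA-MB-231 (adjusted p = 0.351). The A549 against SKOV3 difference of CCNE2 passed with DESeq2 (0.0436), limma-voom (0.0493) and no low count filter (0.0385).

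CCND2 separated the lines most widely. It had 0 reads in all 4 SKOV3 libraries, 6 to 45 reads per library in A549 and 585 to 2326 in MDA-MB-231. Against a floor of 3 counts over the 4 SKOV3 libraries (0.0307 CPM), CCND2 was at least 1820-fold higher in MDA-MB-231 and at least 27.3-fold higher in A549. Between the lines with reads, it averaged 0.837 ± 0.768 CPM in A549 and 55.8 ± 26.5 CPM in MDA-MB-231, a difference of -6.23 ± 0.34 (adjusted p = 7.22e-06). An antisense gene, CCND2-AS1, overlaps CCND2, and the counting strand is not given, so reads of these genes cannot be told apart. The floor covers counting error only, while the ± values also include the spread between libraries.

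CDKN2A, which encodes p16 and, in another reading frame, the MDM2 inhibitor ARF, was at the limit of detection in all 3 lines. Its reads were 3 and 1 in A549 MYC cells with tipifarnib and DMSO and 1 and 4 in the control cells. In SKOV3 they were 7 and 1 in MYC cells and 5 and 8 in control cells, and in MDA-MB-231 3 and 1 in MYC cells and 1 and 4 in control cells. CDKN2B, which encodes p15 beside CDKN2A on chromosome 9, had 0 to 2 reads in every library, summing to 4 reads in MDA-MB-231, 3 in SKOV3 and 2 in A549. Neither gene entered a test, and no fold is given.

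The genes that flank CDKN2A and CDKN2B set the lines apart. MTAP, the neighbour that encodes a methionine salvage enzyme, had 514 to 796 reads per library in SKOV3, but 2 to 7 in A549 and 0 to 2 in MDA-MB-231. KLHL9, an adaptor of a ubiquitin ligase and the farthest gene listed on the MTAP side, had 1315 to 1568 reads per library in A549, 957 to 1225 in SKOV3 and 0 to 3 in MDA-MB-231. Between them, the noncoding gene MIR31HG summed to 377 reads in SKOV3, 258 in A549 and 0 in MDA-MB-231. The interferon gene IFNE summed to 73 reads in SKOV3, 57 in A549 and 0 in MDA-MB-231. On the other side, DMRTA1 summed to 218 reads in A549, 15 reads in SKOV3 and 2 reads in MDA-MB-231. The antisense gene CDKN2B-AS1 had 0 reads in all 12 libraries. In MDA-MB-231 none of the 9 genes in this stretch had more than 9 reads over its 4 libraries, and in A549 each gene from MTAP to CDKN2B had 16 or fewer. Read counts do not tell a gene that is missing from one that is not transcribed.

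**Figure D2:**
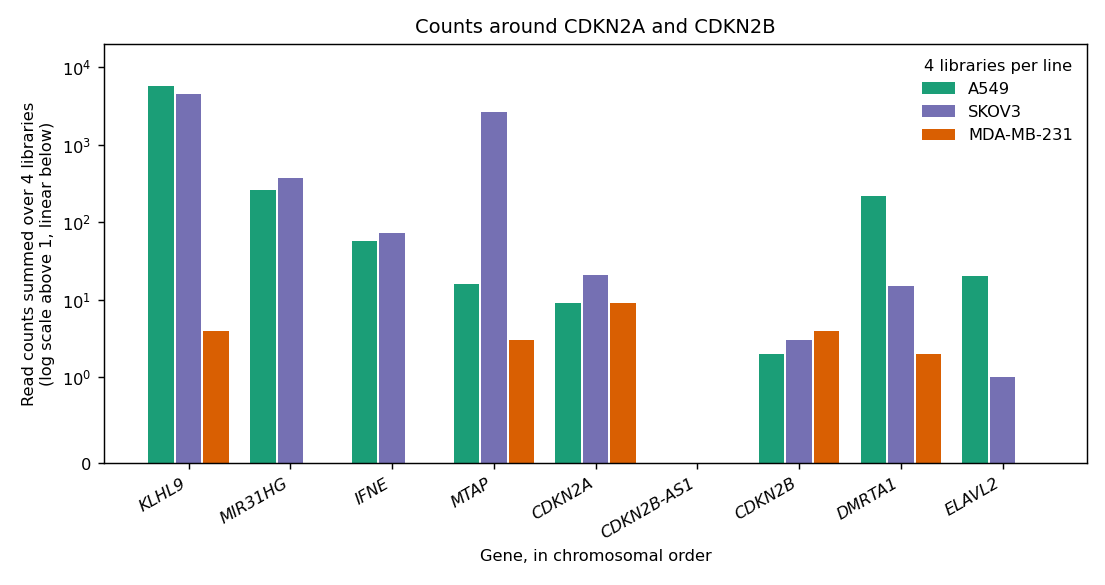
Reads summed over the 4 libraries of each line for CDKN2A, CDKN2B and 7 neighbouring genes, in chromosomal order along x, on a log axis above 1 read. MTAP has 2617 reads in SKOV3, 16 in A549 and 3 in MDA-MB-231, while CDKN2A has 9 to 21 in each line.

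Tipifarnib changed 2 of the 8 tested genes over both genotypes, and both fell: the INK4 inhibitor CDKN2C and the E cyclin CCNE2. CDKN2C fell in each line, and CCNE2 fell in SKOV3 and MDA-MB-231. CCND1 changed in opposite directions in SKOV3, where it rose, and in MDA-MB-231, where it fell. CCNE1, CCND2, CCND3 and CDKN2D passed in no line. Of all genes tested, 11.3% passed over both genotypes, 4.66% higher and 6.63% lower. The median log2 change of the 8 genes was -0.22, and that of all genes tested was 0.00. The fit takes the pairs of a line as independent although they share that line's own response. In bulk RNA, fewer cells in a state and less RNA per cell cannot be told apart.

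**Figure D3:**
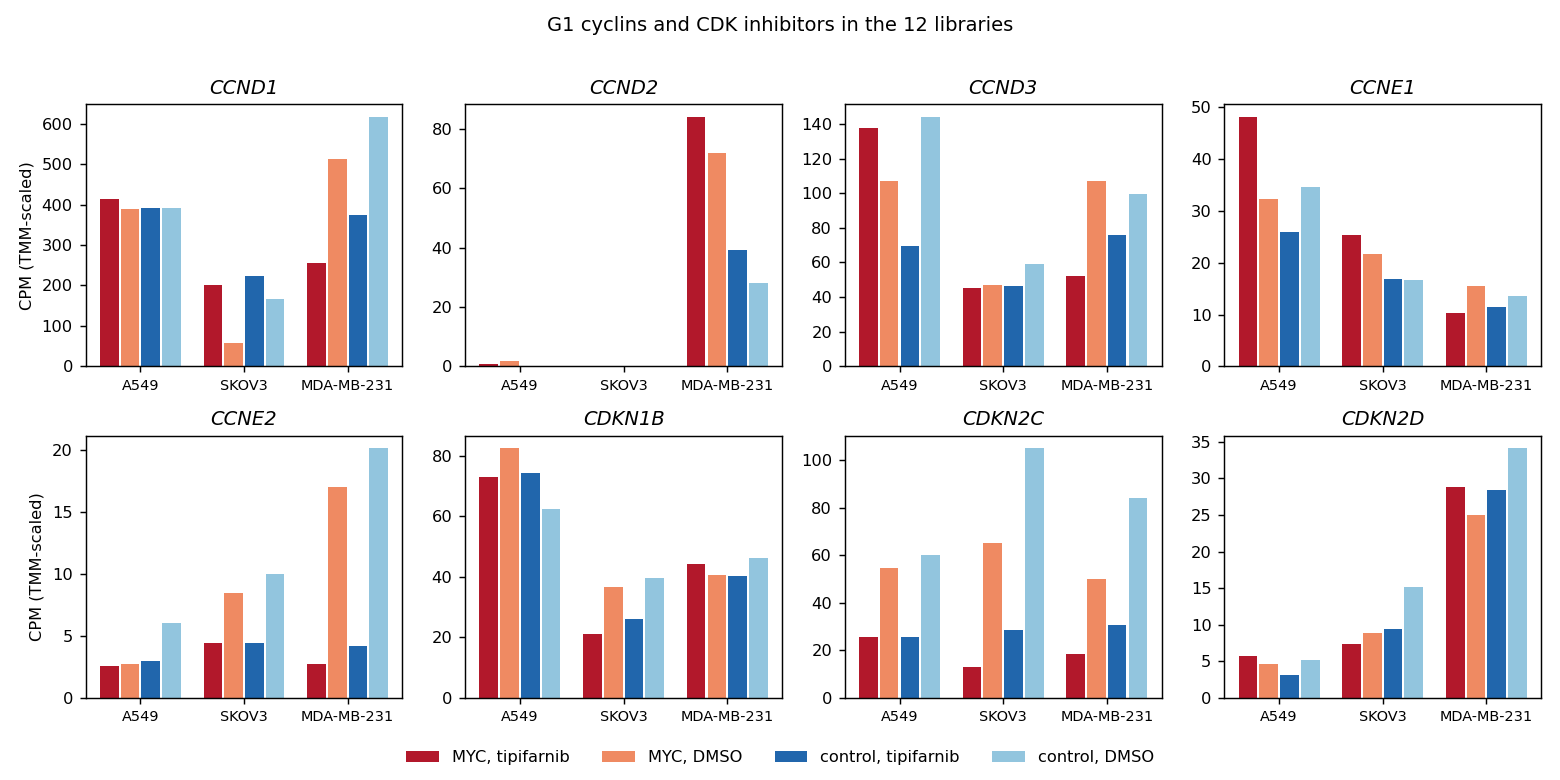
CPM of the 8 tested genes in the 12 libraries, 1 bar per library with no error bar, grouped by line and coloured by vector and treatment. Both tipifarnib bars of CDKN2C lie below both DMSO bars in each line, and the CCND2 bars of SKOV3 are at 0.

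CDKN2C (ENSG00000123080.6), which encodes the CDK4 and CDK6 inhibitor p18, had 25.6 CPM in MYC and 25.4 CPM in control A549 cells with tipifarnib, against 54.4 and 59.9 CPM with DMSO. In SKOV3 the tipifarnib libraries had 13.1 CPM in MYC and 28.7 CPM in control cells, against 65.2 and 104.9 CPM with DMSO. In MDA-MB-231 the values were 18.5 CPM in MYC and 30.7 CPM in control cells with tipifarnib, against 50.0 and 84.0 CPM with DMSO. Every tipifarnib library was below both DMSO libraries of its line, and over the 12 libraries the highest tipifarnib value lay below the lowest DMSO value. The log2 change was -1.55 ± 0.19 over both genotypes, lower in 6 of 6 pairs (adjusted p = 0.00156). Within lines it was -1.16 ± 0.14 in A549 (adjusted p = 0.00431), -2.08 ± 0.14 in SKOV3 (adjusted p = 0.000171) and -1.44 ± 0.14 in MDA-MB-231 (adjusted p = 0.000284). The pooled adjusted p was 0.0687 without MDA-MB-231, with a change of -1.59.

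The tipifarnib effect on CDKN2C differed in size between lines (edgeR F test, adjusted p = 0.0388), with the drop greatest in SKOV3. That difference did not pass in 9 fits: with limma-voom (adjusted p = 0.0542), without either A549 MYC library (0.0774 and 0.0818), without either SKOV3 MYC library (0.201 and 0.202), or without any 1 MDA-MB-231 library (0.122 to 0.142). The summed INK4 level per exon length, which includes CDKN2D, was 11.6 and 9.72 CPM per kilobase in A549 with tipifarnib (MYC and control), against 19.5 and 21.5 with DMSO. In SKOV3 it was 8.88 and 15.0 with tipifarnib against 25.6 and 41.7 with DMSO, and in MDA-MB-231 24.8 and 28.1 against 31.7 and 48.1. The sums were not tested.

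The promoter windows listed for these genes were read for the E-box that MYC-MAX dimers bind. RefSeq (GRCh38.p14) lists 3 transcript starts for CDKN2C on the plus strand of chromosome 1. The 250 bases before the outermost start (chr1:50960495-50960744) are printed with the E-box in capitals, which begins 220 bases before the start, and the 30 bases around a second E-box (chr1:50970164-50970193), 69 bases before the innermost start, stand under it. The window that holds the second E-box overlaps exons of CDKN2C transcripts with earlier starts, and the outermost window does not.
CDKN2C outermost start: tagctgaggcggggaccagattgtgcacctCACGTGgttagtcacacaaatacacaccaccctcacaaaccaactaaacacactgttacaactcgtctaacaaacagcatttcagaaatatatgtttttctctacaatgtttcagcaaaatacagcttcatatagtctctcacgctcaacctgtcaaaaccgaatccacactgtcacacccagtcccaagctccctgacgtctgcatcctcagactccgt
CDKN2C innermost start: ttgctgaataatCACGTGtgaatcgagggg
The table held 12 such windows for 7 of the 10 genes, and the 2 with CACGTG were both windows of CDKN2C. Of all 35116 promoter windows of this length, 6.34% held the same letters, which read alike on both strands. Words of the E2F type (TTTCGCGC, TTTGGCGC, TTTCCCGC and TTTGCCGC, either strand) were in 0 of the 12 windows and in 2.79% of all windows. A match is a description of the letters, and binding was not measured. CCND1, CCND2 and CCNE2 have no entry in the table used.

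CCNE2 (ENSG00000175305.12), the second E cyclin, had 2.71 CPM in MYC and 4.16 CPM in control MDA-MB-231 cells with tipifarnib, against 17.0 and 20.1 CPM with DMSO. In SKOV3 it had 4.43 and 4.40 CPM with tipifarnib, against 8.45 and 9.98 CPM with DMSO. In A549 it had 2.57 and 2.96 CPM with tipifarnib, against 2.74 and 6.07 CPM with DMSO. The treatments did not overlap in SKOV3 and MDA-MB-231. In A549 the MYC libraries were nearly level, and the value in control cells with tipifarnib lay above that in MYC cells with DMSO. CCNE2 fell by 1.38 ± 0.31 on the log2 scale over both genotypes, lower in 6 of 6 pairs (adjusted p = 0.0226). Within lines the log2 change was -2.46 ± 0.27 in MDA-MB-231 (adjusted p = 0.000544), -1.06 ± 0.26 in SKOV3 (adjusted p = 0.0253) and -0.59 ± 0.28 in A549 (adjusted p = 0.229). The SKOV3 call did not pass without any 1 SKOV3 library (-1.18 to -0.93, adjusted p from 0.153 to 0.185).

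The size of the CCNE2 effect differed between lines (edgeR F test, adjusted p = 0.0351). Without MDA-MB-231 the pooled change was -0.82 (adjusted p = 0.2), and without SKOV3 it was -1.56 (adjusted p = 0.0806). The difference between lines did not pass without either SKOV3 MYC library (adjusted p = 0.0725 and 0.074) or without any 1 MDA-MB-231 library (0.137 to 0.236). In MDA-MB-231, tipifarnib over DMSO was 0.668 and 0.854 for CCNE1 in MYC and control cells, against 0.160 and 0.207 for CCNE2. CCNE2 thus made up 13.2% and 17.3% of the E cyclin sum per exon length there with tipifarnib (MYC and control), against 38.8% and 46.4% with DMSO. INTS8 and NDUFAF6 overlap the CCNE2 locus, and with no stated counting strand their reads may not be fully separate from those of CCNE2.

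CCNE1 (ENSG00000105173.9), the other activator of CDK2, had no shared direction. It had 48.2 CPM in MYC and 25.9 CPM in control A549 cells with tipifarnib, against 32.3 and 34.5 CPM with DMSO. In SKOV3 it had 25.4 and 16.8 CPM with tipifarnib, against 21.6 and 16.7 CPM with DMSO, and in MDA-MB-231 10.4 and 11.5 CPM against 15.5 and 13.5 CPM. The A549 tipifarnib values lay on both sides of the DMSO values, and the MDA-MB-231 values lay below them. Its change was -0.05 ± 0.15 over both genotypes (adjusted p = 0.862), higher in 3 of 6 pairs. Within lines the log2 value of CCNE1 was -0.41 ± 0.23 in MDA-MB-231 (adjusted p = 0.237), 0.12 ± 0.22 in SKOV3 (0.779) and 0.09 ± 0.22 in A549 (0.861).

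CCND1 (ENSG00000110092.3) responded differently by line. In SKOV3 it had 199.9 CPM in MYC and 224 CPM in control cells with tipifarnib, against 56.8 and 166 CPM with DMSO. In MDA-MB-231 it had 256 and 373 CPM with tipifarnib, against 513 and 617 CPM with DMSO. In A549 it had 413 and 391 CPM with tipifarnib, against 389 and 392 CPM with DMSO, with all 4 libraries between 389 and 413 CPM. Both tipifarnib values lay above both DMSO values in SKOV3 and below both in MDA-MB-231. The log2 change was 1.12 ± 0.26 in SKOV3 (adjusted p = 0.019), -0.86 ± 0.25 in MDA-MB-231 (adjusted p = 0.0336) and 0.04 ± 0.25 in A549 (adjusted p = 0.954), and it differed between lines in the edgeR F test (adjusted p = 0.0277). Over both genotypes it averaged out at 0.06 ± 0.31 (adjusted p = 0.917).

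The SKOV3 rise of CCND1 rested on the MYC cells. Tipifarnib over DMSO was 3.52 in MYC SKOV3 cells and 1.36 in control cells. Leaving out the MYC library with DMSO gave a log2 change of 0.44 (adjusted p = 0.242) and leaving out the MYC library with tipifarnib 0.44 (adjusted p = 0.234), whereas CCND1 changed by 1.82 without either control library (adjusted p = 0.000489 and 0.000438). The fall in MDA-MB-231 did not pass with DESeq2 (adjusted p = 0.0922). Without any 1 library of the line it did not pass either, at log2 changes of -1.01 to -0.72. The difference in CCND1 between lines did not pass without any 1 MDA-MB-231 library (adjusted p from 0.123 to 0.17).

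CCND3 and CCND2, the other D cyclins, passed in no line. CCND3 (ENSG00000112576.8) had 138 CPM in MYC and 69.6 CPM in control A549 cells with tipifarnib, against 107 and 144 CPM with DMSO. In SKOV3 it had 45.5 and 46.7 CPM with tipifarnib, against 46.8 and 59.1 CPM with DMSO, and in MDA-MB-231 52.2 and 75.9 CPM against 107 and 99.4 CPM. Its values were lower with tipifarnib in 5 of 6 pairs, the A549 MYC pair being the exception, and the change over both genotypes was -0.39 ± 0.18 (adjusted p = 0.185). Within lines the CCND3 value was -0.71 ± 0.28 in MDA-MB-231 (adjusted p = 0.0936), -0.34 ± 0.28 in A549 (0.498) and -0.19 ± 0.28 in SKOV3 (0.704). With no low count filter the MDA-MB-231 value passed (-0.70, adjusted p = 2.21e-05), although the change itself was nearly the same. Why the p-value fell was not tested. Without the A549 MYC library with tipifarnib the A549 value was -1.05. CCND2 had 84.0 and 39.1 CPM in MYC and control MDA-MB-231 cells with tipifarnib, against 71.9 and 28.1 CPM with DMSO, a log2 value of 0.35 ± 0.17 (adjusted p = 0.181). In A549, at 45 reads or fewer, it was -0.80 ± 0.35 (adjusted p = 0.199), and over both genotypes 0.03 ± 0.32 (0.972).

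CDKN1B (ENSG00000111276.6), which encodes p27, fell in SKOV3 only among the within-line tests. It had 21.2 CPM in MYC and 26.2 CPM in control SKOV3 cells with tipifarnib, against 36.7 and 39.8 CPM with DMSO, so the treatments did not overlap. In A549 it had 72.9 and 74.4 CPM with tipifarnib, against 82.5 and 62.5 CPM with DMSO, and in MDA-MB-231 44.1 and 40.3 CPM against 40.5 and 46.2 CPM. In A549 the tipifarnib values lay between the DMSO values, and in MDA-MB-231 the treatments overlapped. The SKOV3 change was -0.70 ± 0.15 (adjusted p = 0.0126), and it did not pass without any 1 SKOV3 library, at changes of -0.79 to -0.60. The difference of the CDKN1B effect between lines did not pass (edgeR F test, adjusted p = 0.0804). That difference passed with no low count filter (adjusted p = 0.0195) and without the A549 MYC library with tipifarnib. The log2 value of CDKN1B was 0.04 ± 0.14 in A549 (adjusted p = 0.917), -0.03 ± 0.14 in MDA-MB-231 (0.913) and -0.23 ± 0.14 over both genotypes (0.329).

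CDKN2D (ENSG00000129355.6), which encodes the INK4 protein p19, had lower values with tipifarnib in 4 of 6 pairs and passed in no tipifarnib test. In A549 it had 5.74 CPM in MYC and 3.09 CPM in control cells with tipifarnib, against 4.63 and 5.10 CPM with DMSO. The SKOV3 values were 7.29 and 9.41 CPM with tipifarnib, against 8.86 and 15.1 CPM with DMSO, so both pairs were lower. It had 28.8 and 28.4 CPM in MYC and control MDA-MB-231 cells with tipifarnib, against 24.9 and 34.1 CPM with DMSO, and there the pairs differed in direction. The log2 value of CDKN2D was -0.22 ± 0.17 over both genotypes (adjusted p = 0.462), -0.49 ± 0.24 in SKOV3 (0.223), -0.18 ± 0.27 in A549 (0.731) and -0.03 ± 0.23 in MDA-MB-231 (0.971).

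By line, tipifarnib changed 1 of the 8 genes in A549, a fall, where 8.03% of all genes passed (3.56% higher, 4.47% lower). It changed 4 of 8 in SKOV3, 1 higher and 3 lower, where 14% passed (6.57% higher, 7.48% lower). In MDA-MB-231 it changed 3 of 8, all lower, where 22.7% passed (10.6% higher, 12.1% lower). The tipifarnib effect differed between lines for 3 of 8 genes (CCND1, CCNE2 and CDKN2C), where 7.69% of all genes passed. The adjusted p of that test was 0.182 for CCND2 (with no reads in SKOV3), 0.431 for CCNE1, 0.602 for CDKN2D and 0.608 for CCND3. In SKOV3, tipifarnib also lowered 2 of its 3 line markers, ERBB2 by 1.08 ± 0.12 (adjusted p = 0.000804) and MECOM by 1.15 ± 0.17 (adjusted p = 0.00265) on the log2 scale. The summed SKOV3 markers were 1527 to 3322 CPM with tipifarnib and 3074 to 6375 CPM with DMSO in that line. The summed A549 markers in SKOV3 were 480 to 571 CPM with tipifarnib and 289 to 365 CPM with DMSO, mostly AKR1C1. Of these 4 A549 markers, 1 rose and 2 fell with tipifarnib in SKOV3. The part of the line markers in the SKOV3 changes was not tested.

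**Figure D4:**
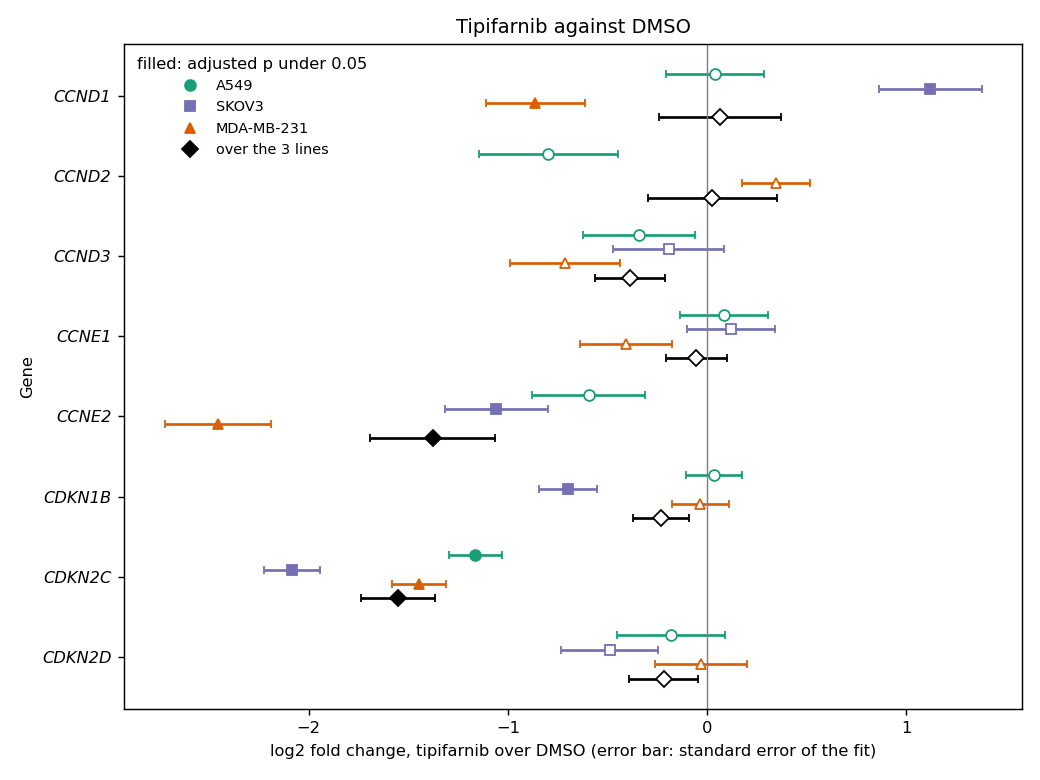
Log2 fold change of tipifarnib over DMSO for the 8 tested genes, within each line and over the 3 lines, with the standard error of the fit as bars and filled symbols where the adjusted p was under 0.05. CDKN2C lies left of 0 and filled in each line, while CCND1 is filled at 1.12 in SKOV3 and at -0.86 in MDA-MB-231.

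Introduced MYC changed 1 of the 8 tested genes over both treatments, the D cyclin CCND2, which rose. Of all genes tested 7.35% passed, 4.5% higher and 2.84% lower. CDKN2C was lower in MYC cells of SKOV3 and MDA-MB-231 and not in A549. CCND1, CCND3, CCNE1, CCNE2, CDKN1B and CDKN2D passed neither over both treatments nor within a line. The median log2 change of the 8 genes was -0.08, and that of all genes tested was 0.00.

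CCND2 (ENSG00000118971.3) had 84.0 and 71.9 CPM in MDA-MB-231 MYC cells with tipifarnib and DMSO, against 39.1 and 28.1 CPM in control cells. In A549 it had 0.918 and 1.89 CPM in MYC cells, or 20 and 45 reads, against 0.273 and 0.264 CPM in control cells, or 6 reads each. The vectors did not overlap in either line, and SKOV3 had no reads with either vector. The log2 change of CCND2 was 1.23 ± 0.17 in MDA-MB-231 (adjusted p = 0.0198), 2.35 ± 0.38 in A549 (adjusted p = 0.00401) and 1.55 ± 0.30 over both treatments (adjusted p = 0.0304), higher in 4 of the 4 pairs with reads. The pooled call was lost without any 1 line (adjusted p = 0.161 with A549 left out, 0.0627 with SKOV3 left out and 0.256 with MDA-MB-231 left out) and with 1 value per line (0.216). Within A549 the CCND2 call was lost without the MYC or the control library with DMSO (1.74, adjusted p = 0.117, and 1.73, adjusted p = 0.115). In MDA-MB-231 it was lost without any 1 library (0.307 to 0.442), at changes of 1.10 to 1.36.

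In MDA-MB-231, CCND2 thereby made up 15.9% and 7.46% of the D cyclin sum per exon length in MYC cells with tipifarnib and DMSO, against 5.70% and 2.64% in control cells. Even there CCND1 remained the most abundant D cyclin, at 71.9% or more. The CCND2 effects of MYC in A549 and MDA-MB-231 were not tested against each other alone. The edgeR F test over the lines (adjusted p = 0.377) includes SKOV3, which had no CCND2 reads, so it cannot decide whether they differ.

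CDKN2C was lower in MYC cells in 5 of 6 pairs. In SKOV3 it had 13.1 and 65.2 CPM in MYC cells with tipifarnib and DMSO, against 28.7 and 104.9 CPM in control cells, a change of -0.89 ± 0.14 (adjusted p = 0.00549). In MDA-MB-231 it had 18.5 and 50.0 CPM in MYC cells, against 30.7 and 84.0 CPM in control cells, a change of -0.74 ± 0.13 (adjusted p = 0.0326). In A549 the vectors were nearly level, with 25.6 and 54.4 CPM in MYC cells against 25.4 and 59.9 CPM in control cells (-0.07 ± 0.13, adjusted p = 0.793). Within each treatment the MYC value was the lower in SKOV3 and MDA-MB-231. Over both treatments the change was -0.55 ± 0.18 with an adjusted p of 0.0996 in edgeR, 0.0352 in DESeq2 and 0.0322 with no filter on low counts. The MDA-MB-231 call was lost without any 1 library of that line, although the change stayed at -0.75 to -0.72. The SKOV3 call was lost without either tipifarnib library, at a change of -0.69. CDKN2C thus had its lowest level of each of these lines in MYC cells with tipifarnib.

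Within lines, MYC changed 1 of the 8 genes in A549 (CCND2, higher), where 17.7% of all genes passed (9.94% higher, 7.8% lower). In SKOV3 it changed 1 of 8 (CDKN2C, lower), where 9.08% passed (4.58% higher, 4.5% lower). In MDA-MB-231 it changed 2 of 8 (CCND2 higher, CDKN2C lower), where 1.64% passed (0.813% higher, 0.831% lower). CCND1 in SKOV3 had 199.9 and 56.8 CPM in MYC cells with tipifarnib and DMSO, against 224 and 166 CPM in control cells, so the gap lay in DMSO. Its change was -0.85 ± 0.26 (adjusted p = 0.0718), and it was -1.54 in the fits without either tipifarnib library of SKOV3. With no low count filter in edgeR, CCND1 passed at nearly the same changes in SKOV3 (-0.86, adjusted p = 1.77e-08) and MDA-MB-231 (-0.41, adjusted p = 0.0428). CCNE1 was higher in MYC cells in 4 of 6 pairs, by 0.32 ± 0.15 (adjusted p = 0.233). In A549, leaving out either DMSO library gave 0.90 for CCNE1 (adjusted p = 0.0387 and 0.0392) and 0.99 for CCND3 (adjusted p = 0.0325 and 0.0331), against 0.40 ± 0.22 and 0.27 ± 0.28 with all libraries. The MYC values of the genes that did not pass follow. CCNE2 was at -0.34 ± 0.30 over both treatments (adjusted p = 0.539), with -0.70 ± 0.28 in A549 (0.121), -0.41 ± 0.26 in MDA-MB-231 (0.447) and -0.12 ± 0.26 in SKOV3 (0.837). The A549 value of CCNE2 passed without the MYC library with tipifarnib (-1.15, adjusted p = 0.0494). CDKN2D was at -0.15 ± 0.18 over both treatments (adjusted p = 0.659), with 0.36 ± 0.27 in A549 (0.415), -0.21 ± 0.23 in MDA-MB-231 (0.676) and -0.57 ± 0.24 in SKOV3 (0.188). CDKN1B was at -0.01 ± 0.14 (adjusted p = 0.964), with 0.19 ± 0.14 in A549 (0.415), -0.03 ± 0.14 in MDA-MB-231 (0.968) and -0.21 ± 0.15 in SKOV3 (0.438). CCND3 was at -0.02 ± 0.18 (adjusted p = 0.96), with -0.21 ± 0.28 in MDA-MB-231 (0.742) and -0.19 ± 0.28 in SKOV3 (0.752). CCND1 was at -0.31 ± 0.30 (adjusted p = 0.566), with 0.03 ± 0.25 in A549 (0.958) and -0.40 ± 0.25 in MDA-MB-231 (0.433). CCNE1 was at 0.03 ± 0.23 in MDA-MB-231 (adjusted p = 0.998) and 0.49 ± 0.22 in SKOV3 (0.222).

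The MYC effect differed between lines for 0 of 8 genes in edgeR and in limma-voom, 1 at an unadjusted p under 0.05 and 1 with DESeq2 (CDKN2C), where 3.07% of all genes passed in edgeR. The adjusted p in edgeR was 0.0805 for CDKN2C, 0.377 for CCND2 (with no reads in SKOV3), 0.383 for CDKN2D, 0.403 for CCND1, 0.546 for CDKN1B, 0.681 for CCNE1 and CCNE2, and 0.721 for CCND3. For CCND1 it was 0.00866 and 0.00879 without either SKOV3 tipifarnib library.

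**Figure D5:**
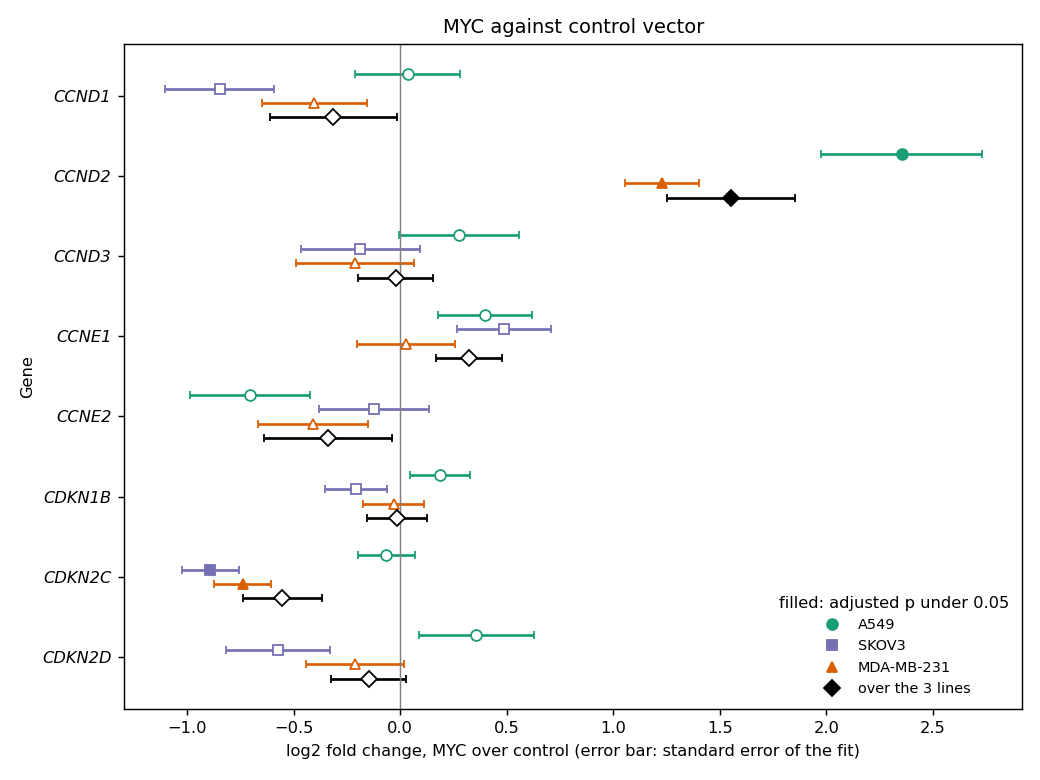
Log2 fold change of MYC over control for the 8 tested genes, within each line and over the 3 lines, with the standard error of the fit as bars and filled symbols where the adjusted p was under 0.05. CCND2 lies right of 0 in A549 and MDA-MB-231, with no SKOV3 value, and CDKN2C lies left of 0 and filled in SKOV3 and MDA-MB-231.

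The series asks which genes go with a change in tipifarnib sensitivity in MYC cells, a question addressed by the interaction of MYC and tipifarnib. No G1 cyclin or inhibitor passed: 0 of 8 in edgeR, DESeq2 and limma-voom, and 0 of 8 at an unadjusted p under 0.05. In all, 0% of the 17096 genes passed in edgeR, and 125 had an unadjusted p under 0.05. That is fewer than would be expected with no interaction in any gene, so the test was conservative. It counts the spread of responses between lines as error. A count of 0 therefore does not show that MYC leaves the response to tipifarnib unchanged. The interaction of the 8 genes ran from -0.72 ± 0.59 for CCND2 to 0.64 ± 0.35 for CDKN2D. It was -0.01 ± 0.36 for CDKN2C, where tipifarnib over DMSO was 0.471 in MYC and 0.424 in control A549 cells, 0.201 and 0.273 in the SKOV3 pairs, and 0.370 and 0.365 in the MDA-MB-231 pairs. It was 0.36 ± 0.35 for CCND3, 0.33 ± 0.31 for CCNE1, 0.24 ± 0.61 for CCNE2 and -0.07 ± 0.28 for CDKN1B, and the adjusted p was 1 for each of the 8 genes. For CCND1 it was 0.29 ± 0.59, a standard error wide enough that the SKOV3 gap between MYC and control cells could not be assessed over the lines.

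The kinases and partners of these cyclins were examined beside them, as lists of known pathway members. Over both genotypes, 11.3% of all genes passed with tipifarnib, 4.66% higher and 6.63% lower, and each list count is to be read against that. Of 10 kinase genes and partners, 4 passed, 1 higher and 3 lower, with a median of -0.07. The KIP inhibitor CDKN1A changed by 2.13 ± 0.25 (adjusted p = 0.00148), CDK2 by -0.62 ± 0.09 (adjusted p = 0.00321), the CDK-activating phosphatase CDC25A by -0.93 ± 0.18 (adjusted p = 0.0122) and the D cyclin partner CDK4 by -0.41 ± 0.11 (adjusted p = 0.0402). The rise of CDKN1A was thus opposite in sign to the fall of CDKN2C in the same libraries. Of 11 genes for the turnover of G1 regulators, 1 fell, the p27 ubiquitin ligase subunit SKP2, by 0.97 ± 0.23 on the log2 scale (adjusted p = 0.0253), a share near that of all genes.

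Of 10 pocket protein and E2F genes, 5 fell with tipifarnib over both genotypes and 0 rose, with a median of -0.30, where 6.63% of all genes fell. In MDA-MB-231 alone 6 fell and 1 rose, where 12.1% of all genes fell and 10.6% rose. The gene that rose there was RBL2, an RB1 relative, by 0.84 ± 0.14 (adjusted p = 0.00265). Over both genotypes and all lines, the RB1 relative RBL1 changed by -0.85 ± 0.14 (adjusted p = 0.00483), E2F2 by -1.68 ± 0.27 (adjusted p = 0.00481), RB1 by -0.36 ± 0.08 (adjusted p = 0.0226) and the E2F partner TFDP1 by -0.57 ± 0.13 (adjusted p = 0.0234). Of 16 S phase genes, 16 fell, with a median of -1.003, and a fall of such genes was already known from these data. Their summed level was 1713 and 1454 CPM in MYC and control A549 cells with tipifarnib, against 2743 and 2943 CPM with DMSO. In SKOV3 it was 1229 and 1061 CPM against 2081 and 1911 CPM, and in MDA-MB-231 1264 and 1304 CPM against 3205 and 3212 CPM. The summed S phase level was lower with tipifarnib in each line, as was CDKN2C, while CCNE2 passed in SKOV3 and MDA-MB-231 and not in A549. Its part in those falls was not tested. Of 13 upstream factors, 3 rose (MXD1, a MAX partner that opposes MYC, by 1.41 ± 0.24, and the AP-1 genes FOSL1 by 0.91 ± 0.21 and JUN by 1.28 ± 0.34) and CTNNB1, which encodes beta-catenin, fell by 0.39 ± 0.09.

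With MYC over both treatments, where 7.35% of all genes passed, 2 genes of these lists passed. The kinase list had 0 of 10 genes in edgeR, 3 at an unadjusted p under 0.05, 2 in DESeq2 and 0 in limma-voom. The turnover list had 0 of 11, with 4 at an unadjusted p under 0.05, 1 in DESeq2 and 0 in limma-voom. The S phase list had 0 of 16, with 4 at an unadjusted p under 0.05, 3 in DESeq2 and 0 in limma-voom. Within A549, where 17.7% of all genes passed with MYC, 5 of the 10 kinase genes and partners did, 4 higher and 1 lower. Among them CDC25A rose by 0.90 ± 0.15 (adjusted p = 0.00357), the kinase chaperone CDC37 by 0.44 ± 0.12 (0.0291) and CCNH, the cyclin of the CDK-activating kinase, by 0.46 ± 0.12 (0.0314), while the KIP inhibitor CDKN1C fell by 2.65 ± 0.52 (0.00818). CDKN1C had only 2 and 6 reads in A549 MYC cells with tipifarnib and DMSO, against 31 and 20 in control cells. In SKOV3 the count was 1 of 10, with 9.08% of all genes, and in MDA-MB-231 0 of 10 in edgeR, DESeq2 and limma-voom, with 4 at an unadjusted p under 0.05. Over both treatments CDC25A, a known MYC target, was higher in 6 of 6 pairs by 0.64 ± 0.18 with an adjusted p of 0.0577. E2F5 rose by 0.60 ± 0.16 (adjusted p = 0.0489), 1 of the 10 pocket protein and E2F genes, and CTNNB1 fell by 0.34 ± 0.09 (adjusted p = 0.0489), 1 of the 13 upstream factors.

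The genes whose pattern was most like each member were sought by Pearson's r of log2 CPM over the 12 libraries, centred on each line's mean, among genes with a mean log2 CPM of at least 1. These values are descriptions, and the 12 points share line, vector and treatment. CDKN2C was most like LIMK2 (0.978), CASKIN2 (0.976) and ZNF407 (0.972), and CCNE2 most like LRRC45 (0.995), MESD (0.994) and RBBP4 (0.986). CCND1 was most like DNAJC10 (0.945), NIBAN2 (0.940) and F3 (0.939), and CCND2 most like LARP1B (0.971), VSIG1 (0.961) and DPCD (0.952). For CCNE1 the nearest gene was GCSH (0.950), for CDKN1B ZNRF2 (0.943), for CCND3 JMJD8 (0.90) and for CDKN2D ITSN1 (0.885). No member was among the 3 nearest genes of another, and the r between CCNE2 and CDKN2C was 0.781.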

How the data were processed

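RNA of 12 cultures was sequenced after a SMARTER mRNA-Seq library preparation, per the labels' protocols. Unnormalized gene-level read counts were deposited by the authors in 1 table with a column for each library, and the submitters' processing notes name TopHat2, HTSeq, DESeq2 and hg19, with versions, strand setting and annotation not given in the sources used here. HTSeq's 5 summary rows (17.5% to 19.9% of all counts per library) were left out. Symbols were paired with 51996 of 57820 identifiers.

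Counts were scaled with TMM, filtered with filterByExpr over the 4 groups (17096 genes kept) and tested with the edgeR 4.0.16 quasi-likelihood test in R 4.3.3, with Benjamini-Hochberg adjustment over all genes tested and a threshold of 0.05. Comparisons over lines and between lines used line and group (6 residual degrees of freedom), while those within a line gave every line separate coefficients for vector and drug (3 residual degrees of freedom), so that departures from additivity within lines make up the error. There were 14 comparisons. Line was the block because libraries of 1 line are the same cells. After centring on groups, libraries of 1 line correlated across genes with r of 0.829 to 0.922 (18 pairs), and libraries of different lines with r of -0.551 to -0.307 (36 pairs).

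The members and all lists were chosen with earlier results of these data known. Every member is named in every comparison where it was tested, and up to 4 genes with the smallest p from each list. Exon lengths are exon unions of GENCODE (GRCh38), so lengths are approximate for counts made on hg19, and no coordinate of the counts is printed. Promoters are RefSeq GRCh38.p14 windows. Alternatives used limma 3.58.1 (voom), DESeq2 1.42.0, DESeq2 size factors in edgeR, no low count filter, no replicate block, 1 value per line, and leaving out each line or library. Scripts were tested on simulated counts. Python 3.11.15, pandas 2.3.3 and matplotlib 3.10.9 were used for levels and figures.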

Additional observations from a re-analysis of the deposited data

Results flagged for a closer look

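For 3 genes the tipifarnib effect differed between the cell lines in a test of the difference itself, the edgeR quasi-likelihood F test of the within-line effects, adjusted over all genes tested. CCND1 had an adjusted p of 0.0277, with effects of 1.12 ± 0.26 in SKOV3, -0.86 ± 0.25 in MDA-MB-231 and 0.04 ± 0.25 in A549. CCNE2 had an adjusted p of 0.0351, with effects of -2.46 ± 0.27 in MDA-MB-231, -1.06 ± 0.26 in SKOV3 and -0.59 ± 0.28 in A549. CDKN2C had an adjusted p of 0.0388, with effects of -2.08 ± 0.14 in SKOV3, -1.44 ± 0.14 in MDA-MB-231 and -1.16 ± 0.14 in A549. The tipifarnib dose was 10 µM in A549 and 20 µM in the other lines, so dose and line cannot be told apart for A549. SKOV3 and MDA-MB-231 received the same dose.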

How the results depend on the processing

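Over the alternatives, no member's called change turned direction, and of 1144 alternative results for single members 1054 kept their side of the threshold, 66 lost a call and 24 gained one. The count of called members for tipifarnib over both genotypes, 2 in the edgeR test, was 0 with no replicate block (CDKN2C -1.56, adjusted p = 0.101, and CCNE2 -1.59, adjusted p = 0.545) and 1 with 1 value per line, and 0 to 2 with 1 line left out. For MYC over both treatments, with 1 call, it was 2 with DESeq2, 2 with no low count filter, 0 with no replicate block, 0 with 1 value per line, and 0 to 0 with 1 line left out. With 1 library left out, the count was 1 to 2 for tipifarnib in A549 (1 call), 1 to 2 in SKOV3 (4 calls) and 2 to 2 in MDA-MB-231 (3 calls). It was 1 to 2 for MYC in A549 (1 call) and 0 to 0 in MDA-MB-231 (2 calls), and for MYC in SKOV3 (1 call) it was 2 with no low count filter. For tipifarnib effects that differ between lines (3 calls) it was 0 to 3, and for MYC effects that differ (0 calls) 0 to 1, with 1 by DESeq2 and 2 with no low count filter. A line with 1 library left out has an arm with a lone sample, assumed to vary like the others. In the within-line model that line is then fitted exactly, and each of its effects rests on 1 pair. That line adds nothing to the error, so fewer residual degrees of freedom remain than the 3 of the full fit. A call lost in such a fit does not by itself show a smaller change. What else changed the calls was not tested. DESeq2 size factors moved the median of all genes by under 0.1. Counts were low for CDKN2A and CDKN2B, and in A549 also for CCND2 and CDKN1C, at 45 reads or fewer per library.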

Other observations

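MYC itself differed with tipifarnib in MDA-MB-231, where it had 1593 and 349 CPM in MYC and control cells with tipifarnib, against 709 and 148 CPM with DMSO, a change of 1.20 ± 0.26 (adjusted p = 0.011, edgeR). In A549 its values were 506 and 144 CPM with tipifarnib against 912 and 105 CPM with DMSO (-0.20 ± 0.27, adjusted p = 0.69). In SKOV3 they were 610.1 and 99.7 CPM against 494 and 48.4 CPM (0.67 ± 0.27, adjusted p = 0.132). The difference of this effect between lines did not pass (edgeR F test, adjusted p = 0.0917).

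CDKN1C, which encodes the KIP inhibitor p57, rose by 1.39 ± 0.30 with tipifarnib in MDA-MB-231 (adjusted p = 0.0107, edgeR). Of all genes tested, 10.6% rose there, and CDKN1C was chosen here after its values were seen. In SKOV3 it had 3.40 and 7.62 CPM in MYC and control cells with tipifarnib, against 3.33 and 6.08 CPM with DMSO. In A549 the pairs went opposite ways, with 2 and 31 reads in MYC and control cells with tipifarnib, against 6 and 20 with DMSO.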
